A study of Mus musculus with 13 samples.

Results

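The urethra of the mouse embryo was compared with the neighbouring urogenital sinus at embryonic day 14. The comparison rests on 7 of the 13 arrays of the study, chosen by their labels: 3 urethra arrays (replicates 1, 2 and 6) and 4 urogenital sinus arrays (replicates 1, 2, 6 and 7). All 7 samples were FVB/N embryos, from FVB/N females mated to males with the SMGA/EGFP transgene. SMGA stands for smooth muscle gamma-actin, the product of Actg2, and in the transgene the promoter of that gene switches on EGFP, a green fluorescent protein. The urethra was cut out where the tissue fluoresced, and the sinus was the dark tissue that lay between the bladder and the urethra. Samples were not pooled, the sex of the embryos was unknown, and no treatment was given. Replicates 1 and 2 were of Theiler stage 21 and replicates 6 and 7 of stage 22, which are steps in the outward form of the embryo. The 3 bladder arrays (replicates 2, 6 and 8), from the fluorescing bladder of embryos of the same cross and age, shared the model and serve as a further region. The remaining 3 arrays hold RNA pooled from whole wild-type FVB/N mice of postnatal day 1, used by the study as a common standard.

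The urogenital sinus is the ventral part of the embryonic cloaca, an endodermal tube wrapped in mesenchyme. Its upper part gives rise to the bladder, and its lower part to the urethra, with the prostate budding from it in males. Sonic hedgehog from the epithelium and bone morphogenetic proteins (BMPs) in the mesenchyme take part in placing smooth muscle around the tube, while the epithelium of the urethra becomes stratified on a layer of basal cells that make keratins.

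Intensity is the brightness of an array's probes for a gene. It is given here as log2, so that 1 unit is a doubling, and differences are urethra minus sinus in log2 units. Values of single arrays are listed in the order of the replicate numbers above. A value of 5.65 is the floor to which dimmer signals were raised, and 7.39 is the level that a gene had to pass on at least 3 arrays to be tested. Levels are not compared between genes, since probes differ in brightness. In whole tissue, fewer cells of a type and less RNA per cell cannot be told apart. Whether each array came from an embryo of its own is not in the labels, and the p-values therefore cover the spread among these arrays and no more.

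The arrays of the regions overlapped in 6 technical measures, but their ranges were not the same. Median intensity ran from 221 to 378 in the urethra and from 259 to 389 in the sinus, and none of 6 such measures passed a test of the difference (exact two-sided permutation tests, p from 0.429 to 0.914, with 0.0571 the smallest that 3 against 4 arrays can give). Urethra replicate 1 had the lowest median intensity of both groups, 221. Its log2 ratio of actin signal, tail to head of the transcript, was 3.42. The other urethra arrays had 1.34 and the sinus 1.21 to 2.72. The same ratio of Gapdh, at 4.59, lay within the sinus range of 2.92 to 4.83. The mean of neuron markers on this array was 8.32, against 9.79 and 9.81 on the other urethra arrays. Whether these values are linked was not tested. Sinus replicate 1 and urethra replicate 2 stood apart in the markers of other cell types, as given below with the results they touch. The sample titles are written in 3 styles, and all 3 urethra titles share a style that no sinus title has. The labels do not say that a style marks a batch. If it does, region and batch cannot be told apart from the region arrays alone, and the last results below give what the reference arrays show about it.

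Few genes separated the regions beyond the spread between arrays. Of 15019 genes tested, 2 passed an adjusted p of 0.05 (0.0133%; limma with Benjamini-Hochberg adjustment over all genes), 1 in each direction (0.00666% each). At an unadjusted p under 0.05 there were 852 genes higher in the urethra (5.67%) and 707 lower (4.71%). Every urethra array lay above every sinus array for 736 genes (4.9%) and below for 499 (3.32%). The median difference over all genes was 0.05.

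Clca3b rose in the urethra. It belongs to a family of secreted regulators of calcium-activated chloride channels. Its intensity was 8.13, 8.27 and 7.62 in the urethra and 5.92, 5.65, 5.65 and 5.65 in the sinus. The urethra arrays all lay above the sinus arrays, of which 3 were at the floor. The bladder arrays were all at the floor as well. The difference was 2.29 (SE 0.216, limma adjusted p = 0.0161), which is at least 1.54-fold against the level of 7.39. Pdzk1, a scaffold protein that anchors membrane transporters, fell by 1.70 (SE 0.188, limma adjusted p = 0.0329). It was at the floor on all 3 urethra and all 3 bladder arrays and at 7.27, 7.60, 7.15 and 7.39 in the sinus, close to the level of 7.39, so no fold is given. Pdzk1 was tested only because the reference arrays passed the level, at 11.12, 11.21 and 11.10. Clca3b passed the level on no sinus or bladder array. Arrays at the floor show no spread among themselves, and the small SEs of both genes rest in part on such arrays. Neither call held under all settings: without urethra replicate 1 the adjusted p was 0.101 for Clca3b and 0.102 for Pdzk1, and with title style as a block it was 0.671 and 0.476. Both also lost the call without any 1 of the 3 bladder arrays and without sinus replicate 2 or 6, Pdzk1 also without sinus replicate 7 or urethra replicate 6, with differences of 2.16 to 2.48 for Clca3b and -1.77 to -1.62 for Pdzk1 over all such fits. With no floor the adjusted p was 0.256 and 0.156, with the floor at the 40th percentile 0.167 and 0.743, with all 13 arrays 0.0571 for both and with only the 7 arrays 0.298 for both.

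Genes of the contractile apparatus of smooth muscle were higher on the urethra arrays than on the sinus arrays, without any of them passing the adjusted threshold. The tissue was cut out by a reporter of one of them, so the direction of the group follows from the dissection and is a check of the labels. Of 24 listed genes 23 were tested and 0 were called (0.0133% of all genes were), while at an unadjusted p under 0.05 in limma 16 were higher (5.67% of all genes) and 1 was lower (4.71%). On 12 of the 23 the urethra arrays lay wholly above the sinus arrays (4.9% of all genes) and on 1 wholly below (3.32%). The median difference was 1.15, against 0.05 over all genes.

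Actg2 itself was at 12.89, 13.65 and 13.40 in the urethra and at 8.99, 9.31, 7.99 and 10.77 in the sinus. The groups were far apart, with sinus replicate 7 nearest to the urethra. The difference was 4.05 (SE 0.536), or 16.6-fold, and its adjusted p of 0.0827 in limma missed the threshold. The bladder, the other fluorescing region, had 13.97, 13.51 and 13.55, and the difference of urethra minus bladder was -0.36 (95% interval -1.64 to 0.92). Actg2 passed the threshold without sinus replicate 7, with a difference of 4.55 (adjusted p = 0.0102).

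Proteins of the filaments were brighter on every urethra array than on any sinus array. Acta2, smooth muscle alpha-actin, was at 15.80, 16.16 and 15.94 in the urethra and at 13.47, 13.06, 12.21 and 14.53 in the sinus, a difference of 2.65 (SE 0.437, limma adjusted p = 0.102). Its other probe sets gave 0.54 to 2.37. Myh11, the smooth muscle myosin heavy chain, was at 10.55, 11.74 and 12.70 against 6.34, 7.57, 8.03 and 10.05. The regulatory light chain gene Myl9 was at 12.64, 13.29 and 14.12 against 10.46, 10.54, 9.49 and 9.82, a difference of 3.27 (SE 0.514, limma adjusted p = 0.0954). Sinus replicate 7 was the brightest sinus array for Acta2 and Myh11, but not for Myl9.

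Proteins that regulate or anchor the filaments gave a more mixed picture. Cnn1, calponin, which damps the myosin motor, was at 9.04, 10.22 and 11.14 in the urethra and at 6.06, 5.65, 5.65 and 7.80 in the sinus, a difference of 3.84 (SE 0.646, limma adjusted p = 0.102). Tpm2, a tropomyosin, differed by 1.70, Ppp1r12b, a targeting subunit of myosin phosphatase, by 1.35, smoothelin (Smtn) by 1.29, and vinculin (Vcl), which ties actin to adhesion sites, by 0.78. In these 5 genes too the arrays of the regions did not overlap. Tagln, transgelin, was at 8.50, 10.26 and 10.55 against 7.09, 7.90, 7.89 and 8.95, so that urethra replicate 1 fell within the sinus range. The light chain kinase Mylk also overlapped, with 14.41, 15.21 and 15.41 against 13.76, 13.36, 13.59 and 15.43. The intermediate filament genes ran the other way: synemin (Synm) differed by -1.31 with no overlap, and desmin (Des) by -0.60 with overlap.

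No contractile gene was called between the urethra and the bladder, which also differ in title style. The median of urethra minus bladder over the 23 genes was 0.00, with 0 called by limma and, where 2.62% of all genes were called higher and 1.71% lower. At an unadjusted p under 0.05 there was 1 higher and 1 lower, against 15.9% and 8.44% of all genes. The interval of urethra minus bladder was -0.76 to 1.33 for Acta2, -0.48 to 1.98 for Myl9 and -0.61 to 2.48 for Cnn1, which leaves room for differences of more than a doubling in the last 2. The mean level of the group was 11.55, 12.24 and 12.27 in the urethra, 10.59, 10.50, 10.09 and 11.02 in the sinus, and 11.91 to 12.31 in the bladder.

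**Figure D1:**
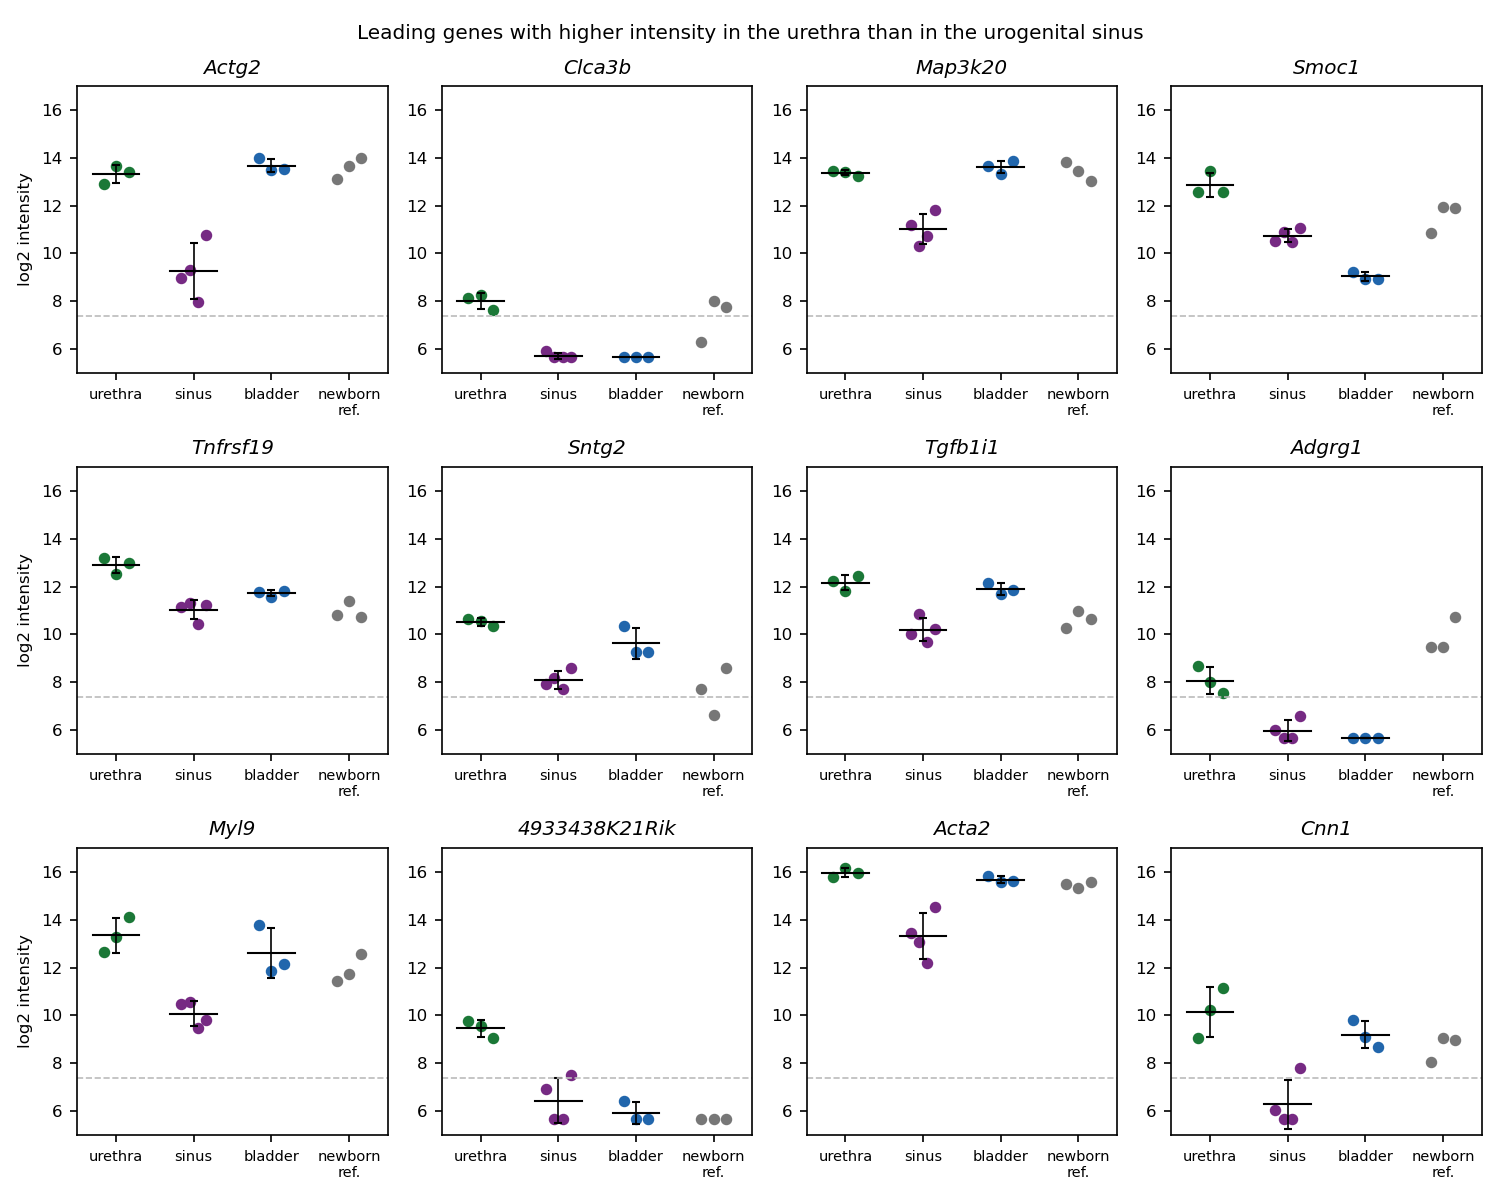
Log2 intensity of the 12 leading genes with higher intensity in the urethra than in the urogenital sinus, on each array (points) of the urethra, sinus, bladder and newborn reference; black bars are region means with SD, and the dashed line is the level of 7.39. In every panel the 3 urethra points lie above the 4 sinus points, while the bladder lies near the urethra for Actg2, Acta2 and Map3k20 and below it for Smoc1, Clca3b and Adgrg1.

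The regulators of smooth muscle did not move as a group. The list has 18 tested genes with a median difference of 0.17, and 0 were called by limma. At an unadjusted p under 0.05 in limma 2 were higher (5.67% of all genes), namely Srf and Foxf2. There were 3 lower (4.71% of all genes), namely Tbx18, Gata6 and Nkx2-3. Srf, serum response factor, which binds the CArG box of many contractile genes, was at 12.14, 13.25 and 13.09 in the urethra and at 11.98, 11.60, 11.70 and 11.70 in the sinus. The groups did not overlap, and the difference was 1.08 (SE 0.267, limma adjusted p = 0.202), but another probe set of Srf gave 0.27. Myocd, the muscle coactivator of Srf, was at 10.28, 14.74 and 14.58 against 11.58, 10.57, 11.79 and 14.22. Urethra replicate 1 was thus below all sinus arrays in Myocd, and sinus replicate 7 was near the other urethra arrays.

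The promoters of Myl9 and Srf are printed as 2 examples, among genes described here, of a promoter with the CArG box, the binding motif of serum response factor. The sequences are the 200 bases before the RefSeq start, 5′ to 3′ on the gene's strand, from assembly GRCm38.p6, with CArG boxes in capitals. Myl9 lies on the plus strand at chr2:156775264-156775463 and Srf on the minus strand at chr17:46556163-46556362.
Myl9: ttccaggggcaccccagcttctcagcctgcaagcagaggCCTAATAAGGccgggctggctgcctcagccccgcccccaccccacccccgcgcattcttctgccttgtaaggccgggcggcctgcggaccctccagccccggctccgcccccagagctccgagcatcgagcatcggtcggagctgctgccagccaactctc
Srf: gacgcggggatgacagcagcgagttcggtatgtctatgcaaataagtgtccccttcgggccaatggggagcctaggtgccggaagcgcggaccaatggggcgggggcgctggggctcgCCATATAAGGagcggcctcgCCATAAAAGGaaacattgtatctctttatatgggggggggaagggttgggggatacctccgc
The Myl9 box begins 161 bases before the start, and the 2 boxes of Srf begin 82 and 62 bases before theirs. The motif reads the same on both strands, and only exact matches were counted, with no mismatch. No other motif was searched for. Windows of 250 bases before to 50 after the start were at hand for 20 of the 24 listed contractile genes, and 3 of these 20 held the motif (Myl9, Vcl and Myl6). A gene was counted if any of its windows held the motif, and among all 27025 genes with a window 488 did (1.81%). A match describes these letters, and was not tested as a binding site.

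Other transcription factors of the mesenchyme differed in opposite directions. Foxf2, a forkhead factor of gut and urogenital mesenchyme, was at 12.72, 12.99 and 12.66 in the urethra and at 10.56, 11.78, 10.76 and 11.49 in the sinus, with no overlap. The difference was 1.64 (SE 0.308, limma adjusted p = 0.119), and Foxf2 was also higher than in the bladder, by 3.02 (adjusted p = 0.00264). Tbx18, a T-box factor of the ureter mesenchyme, went the other way, at 5.65, 9.66 and 6.30 against 11.13, 11.11, 12.66 and 10.23. Its difference of -4.08 (SE 0.910, limma adjusted p = 0.189) had another probe set at -2.64, and urethra replicate 2 was well above the other urethra arrays. Tcf21, a basic helix-loop-helix factor of visceral mesenchyme, was at 13.61, 13.54 and 13.54 against 12.31, 13.30, 12.09 and 12.34, a difference of 1.05 with another probe set at 0.36. Gata6 was at 10.19, 10.44 and 8.74 against 12.72, 11.81, 11.18 and 10.18, which overlap.

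Keratins of basal and simple epithelium were mostly brighter in the urethra. Of 13 tested keratin-list genes 12 had a positive difference, 3 lay wholly above (Krt15, Krt17 and Krt5; 4.9% of all genes), 0 wholly below (3.32%), and 0 were called. At an unadjusted p under 0.05 in limma 5 were higher (these 3, Krt14 and Krt6a; 5.67% of all genes) and 0 lower (4.71%). The median difference was 0.95, and in the bladder, set against the same sinus arrays, it was -0.95. Krt15, a keratin of basal cells, was at 14.28, 14.40 and 14.92 in the urethra and at 11.07, 13.24, 11.91 and 12.64 in the sinus, a difference of 2.32 (SE 0.478, limma adjusted p = 0.146). Krt5, which marks basal cells of stratified epithelium, was at 13.87, 11.89 and 13.47 against 11.03, 11.87, 11.03 and 11.71, a difference of 1.66 (SE 0.457, limma adjusted p = 0.247). Krt17 was at 9.10, 8.25 and 9.27 against 6.59, 8.03, 6.11 and 7.38. For Krt5 and Krt17 the separation is narrow, with urethra replicate 2 close to sinus replicate 2.

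Against the bladder 6 of the 13 keratin-list genes rose in the urethra (2.62% of all genes did) and 0 fell (1.71%). The largest of these were Krt5 at 5.06 (adjusted p = 0.00174), Krt15 at 4.43 (0.00337) and Krt4 at 3.77 (0.0146), by limma. Krt8, a keratin of simple epithelium, overlapped between the regions, at 15.70, 13.77 and 14.48 in the urethra and 15.41, 14.80, 14.03 and 13.76 in the sinus. Trp63, the p63 factor of basal cells, overlapped as well, at 13.70, 12.27 and 13.84 against 11.48, 12.58, 12.71 and 14.07.

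Other epithelial genes gave smaller differences. Among 18 genes of epithelial junctions the median difference was 0.33, and Esrp2, a splicing factor of epithelial cells, was at 12.27, 10.44 and 11.00 in the urethra and at 9.54, 10.36, 8.80 and 8.89 in the sinus (difference 1.84, SE 0.528, limma adjusted p = 0.269). Dsc2, a desmosomal cadherin, was lower, at 8.72, 8.23 and 9.02 against 9.44, 9.53, 10.04 and 10.35. Among 14 genes of urothelial differentiation the median was 0.13, with 9 positive differences and 5 negative. Grhl3, a grainyhead factor of the urothelium, was at 11.56, 10.28 and 11.30 against 9.74, 9.87, 9.21 and 10.02, a difference of 1.34 with no overlap. The uroplakin Upk3b, which is also in the list of mesothelial genes, was at the floor or near it on urethra replicates 1 and 6 (5.81 and 5.65). It was at 9.09 on urethra replicate 2 and at 8.69, 9.23, 9.27 and 7.61 in the sinus, so that the regions overlapped.

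Hedgehog genes gave small differences between the regions. Shh, the ligand made by the epithelium, was at 16.28, 15.31 and 15.69 in the urethra and at 15.38, 14.98, 14.61 and 15.42 in the sinus, which overlap. Its difference was 0.66 from the sinus (SE 0.279, limma adjusted p = 0.466), and it was higher than in the bladder by 1.63 (adjusted p = 0.0202). Hhip, which binds and holds back the ligand, differed by 1.04, with its other probe sets from -0.19 to 0.93. Of the intracellular inhibitors, Sufu was at 13.06, 12.88 and 12.61 against 12.22, 12.24, 11.92 and 12.24, with no overlap. Gas1, a coreceptor, was at 13.26, 12.90 and 13.49 against 13.72, 13.88, 14.42 and 13.93, but its other probe sets ran from -1.03 to 1.16. Of the 13 tested members 0 were called. At an unadjusted p under 0.05 in limma 3 were higher (5.67% of all genes), namely Shh, Hhip and Sufu, and 1 was lower (4.71%), namely Gas1. The median was 0.29. With quantile normalization it was 0.02.

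The other leading genes on the urethra side came from several families. The 12 leading genes of each direction have the smallest limma p among genes whose regions do not overlap and whose difference is at least 1 in size, with the brighter region above the level of 7.39 throughout, and their adjusted p ran from 0.0161 to 0.102 for the higher set. Smoc1, a secreted matrix protein that binds calcium, was at 12.56, 13.43 and 12.55 in the urethra, at 10.52, 10.90, 10.50 and 11.08 in the sinus and at 9.24, 8.92 and 8.95 in the bladder. The 3 regions did not overlap, with the sinus between the others. The difference from the sinus was 2.10 (SE 0.288, adjusted p = 0.0827) and that from the bladder was 3.81 (adjusted p = 0.00174).

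Tnfrsf19, a receptor of the tumour necrosis factor family, was at 12.53 to 13.19 in the urethra and at 11.14, 11.30, 10.43 and 11.25 in the sinus, a difference of 1.88 (SE 0.265, limma adjusted p = 0.0827). Its other probe sets gave only 0.45 to 0.52. Adgrg1, an adhesion G-protein-coupled receptor, was at 7.55 to 8.67 against 6.01, 5.65, 5.65 and 6.60, which is at least 1.60-fold, and its other probe set gave 0.62. The RNA gene 4933438K21Rik was at 9.76, 9.55 and 9.07 against 6.90, 5.65, 5.65 and 7.53. Against the bladder, a comparison that shares the urethra arrays, the differences were 1.18 for Tnfrsf19, 2.42 for Adgrg1 and 3.54 for 4933438K21Rik.

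Map3k20, a stress-activated kinase, was at 13.45, 13.41 and 13.26 in the urethra, at 11.18, 10.33, 10.75 and 11.81 in the sinus and at 13.65, 13.33 and 13.85 in the bladder. Its difference of 2.36 (SE 0.321, limma adjusted p = 0.0827) was not shared by all its probes, since its other 3 probe sets gave 0.20 to 1.32. Tgfb1i1, an adaptor of focal adhesions, was at 12.23, 11.83 and 12.43 against 10.02, 10.86, 9.69 and 10.23, a difference of 1.96 (SE 0.301). Sntg2, a syntrophin of the dystrophin complex, was at 10.65, 10.55 and 10.36 against 7.93, 8.19, 7.73 and 8.60. Urethra minus bladder was -0.24 for Map3k20, 0.26 for Tgfb1i1 and 0.89 for Sntg2.

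The 12 leading genes on the sinus side had adjusted p values in limma of 0.0827 to 0.105. Tbx20, a T-box factor best known from the heart, was at 6.33, 8.80 and 7.04 in the urethra, at 10.35, 11.50, 11.33 and 11.17 in the sinus and at 13.95, 14.22 and 13.91 in the bladder. The difference of -3.70 (SE 0.526) reversed to 0.55 with title style as a block, and newborn reference array 3, which shares the prefix of the urethra titles, differed from reference array 1 by -4.73 in Tbx20. Reference array 2, whose title has the prefix as well, differed from array 1 by -1.11. Its other probe sets gave -2.81 to -0.71.

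Pcdh8, a protocadherin, was at 5.65, 7.24 and 7.82 in the urethra and at 9.55, 10.93, 11.90 and 9.79 in the sinus, with the bladder at 12.07, 11.89 and 12.20. The difference was -3.64 (SE 0.641, limma adjusted p = 0.102), and its other probe set gave -2.69. Dgkk, a diacylglycerol kinase, was at 7.19, 7.85 and 8.23 against 10.14, 12.03, 11.45 and 10.32 (difference -3.23, SE 0.488). In the bladder Dgkk was at 9.32, 8.93 and 9.13, below the sinus and above the urethra.

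Negr1, a cell adhesion protein of neurons, was at 9.18, 8.66 and 9.36 in the urethra and at 10.52, 11.01, 11.40 and 11.30 in the sinus. Flrt3, a leucine-rich repeat adhesion protein, was at 11.51, 11.01 and 10.96 against 13.31, 12.75, 12.60 and 12.73. Hapln1, which links hyaluronan to proteoglycans, was at 9.70, 8.26 and 9.16 against 11.69, 10.70, 11.44 and 11.78, with other probe sets at -1.15 to -0.60. In each of these every sinus array lay above every urethra array. The remaining leading genes were C1qtnf12, a secreted protein related to complement C1q (-1.46), the homeobox gene Dlx2 (at least 2.44-fold lower), Slc35d3, of the nucleotide sugar transporter family (-2.50), and the less studied C530044C16Rik (at least 2.28-fold lower) and AI593442 (-3.13).

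**Figure D2:**
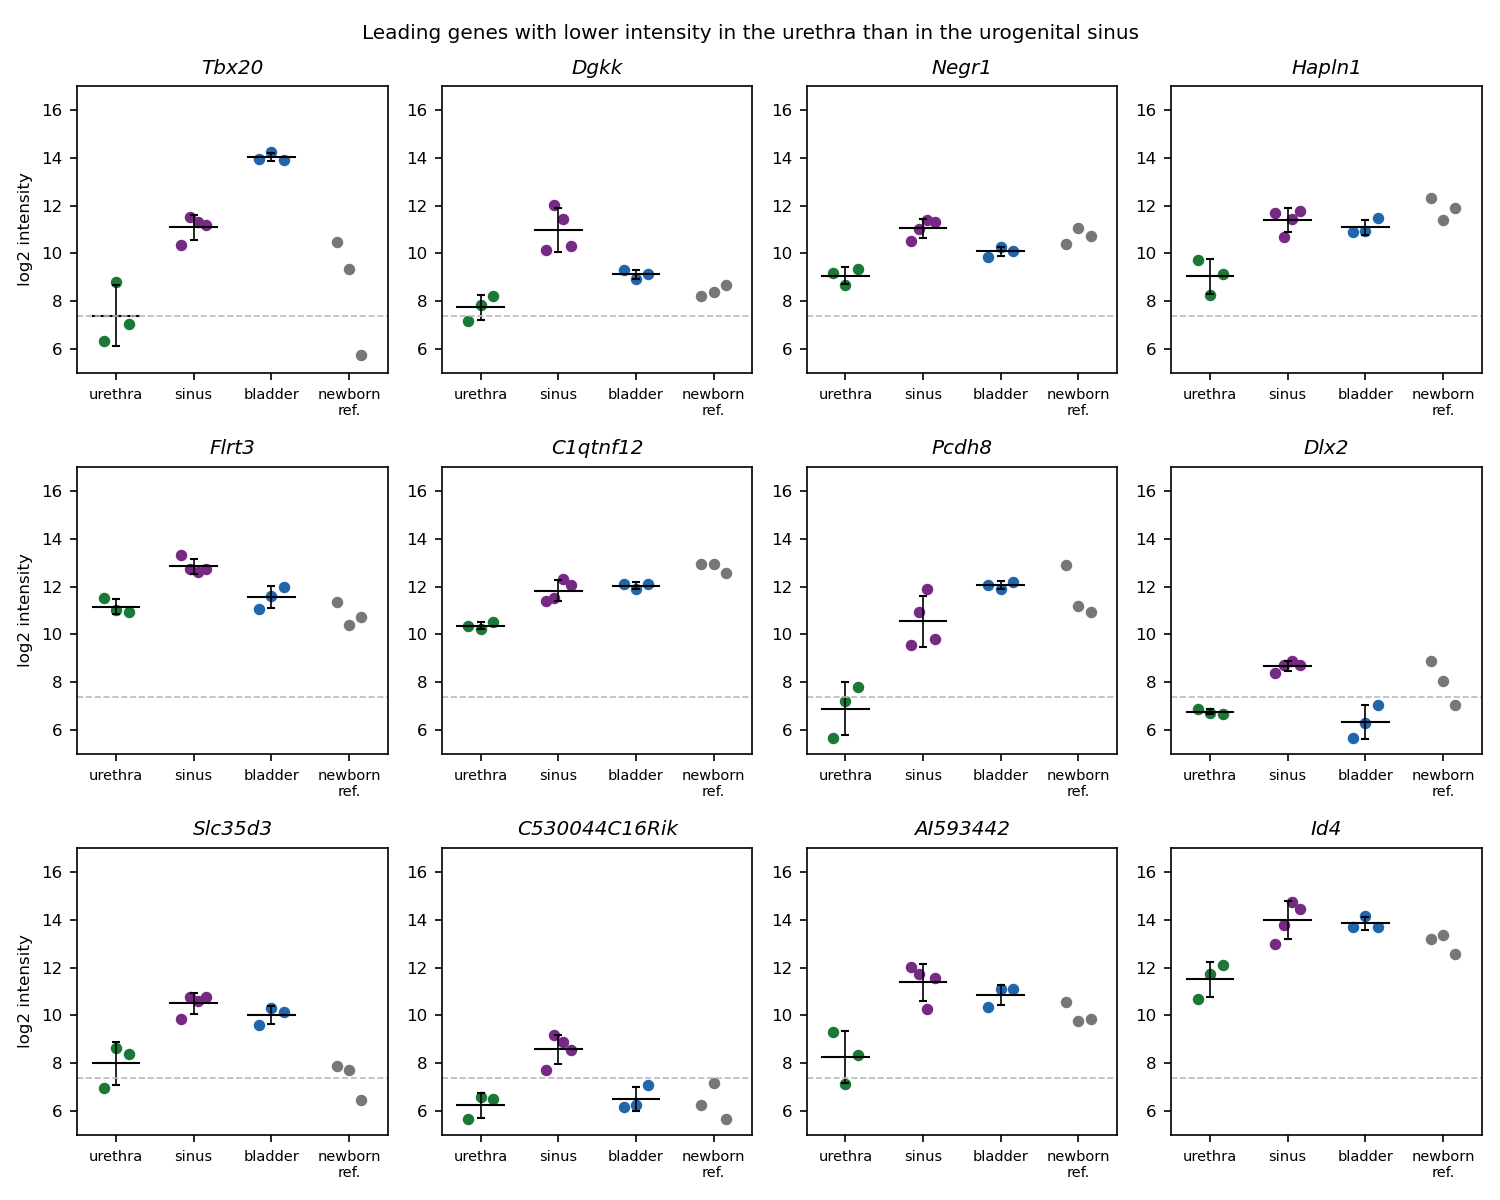
Log2 intensity of the 12 leading genes with lower intensity in the urethra than in the urogenital sinus, on each array (points) of the urethra, sinus, bladder and newborn reference; black bars are region means with SD, and the dashed line is the level of 7.39. The 3 urethra points lie below the 4 sinus points in every panel, and for Tbx20 the third reference point lies far below the other reference points.

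Genes of the BMP pathway lay lower in the urethra than in the sinus in part. Of 23 tested members 0 were called. At an unadjusted p under 0.05 in limma 8 were lower (4.71% of all genes) and 0 higher (5.67%). On 5 of the members (Id4, Id2, Bmper, Msx1 and Bmp5, the last chosen after its values were seen) the urethra arrays lay wholly below the sinus arrays (3.32% of all genes). On 0 they lay wholly above (4.9%). The median difference was -0.36, and it was -0.11 without sinus replicate 1 and -0.61 without sinus replicate 7.

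The ligand Bmp5 was at 10.71, 11.00 and 10.48 in the urethra and at 11.73, 12.04, 11.81 and 11.99 in the sinus, a difference of -1.16 (SE 0.232, limma adjusted p = 0.132). The ligands Bmp4 (0.31) and Bmp7 (0.70) overlapped, with positive differences. Bmper, a secreted binder of BMPs, was at 9.25, 10.82 and 11.09 against 13.74, 12.36, 13.45 and 12.38. Its difference of -2.60 (SE 0.487, limma adjusted p = 0.119) became -0.46 with title style as a block.

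The targets of the pathway given here all had negative differences, which varied in size and in overlap. Id4, of the inhibitors of DNA binding, was at 10.69, 11.74 and 12.10 in the urethra and at 12.97, 13.80, 14.73 and 14.46 in the sinus, a difference of -2.48 (SE 0.450, limma adjusted p = 0.105), with other probe sets at -1.40 and -1.36. Id2 was at 12.68, 12.64 and 12.18 against 13.74, 13.47, 13.40 and 13.73 (difference -1.09, SE 0.203), but its other probe sets ran from -2.02 to 0.41. Id1 and Id3 overlapped, with differences of -0.36 and -0.17. The homeobox target Msx1 was at 8.39, 8.66 and 8.25 against 9.01, 9.97, 9.47 and 9.20.

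Wnt genes were centred near 0 with a few low in the urethra. The 28 tested members had a median of 0.03, with 0 called. At an unadjusted p under 0.05 in limma 0 were higher (5.67% of all genes) and 3 lower (4.71%), namely Dkk1, Wnt9b and Wnt5a. On 4 the urethra arrays lay wholly below the sinus arrays (3.32% of all genes), namely Dkk1, Wnt5a, Lef1 and Rspo2. Dkk1, a secreted Wnt inhibitor, was at 7.13, 7.93 and 7.04 in the urethra and at 8.66, 10.03, 9.20 and 9.73 in the sinus, a difference of -2.04 (SE 0.392, limma adjusted p = 0.126) with another probe set at -3.38. With title style as a block it reversed to 0.52. Wnt5a, a ligand of the genital and sinus mesenchyme, was at 13.02, 11.89 and 12.50 against 13.17, 13.12, 13.27 and 13.56, and also reversed, to 0.16.

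In the TGF-beta list 13 genes had a median of -0.18, with 0 called by limma. At an unadjusted p under 0.05 in limma 1 was higher (5.67% of all genes), namely Tgfbr2. There were 3 lower (4.71% of all genes), namely Ltbp1, Tgfb2 and Tgfbr1. The latent binding protein Ltbp1 was at 11.74, 11.84 and 11.85 in the urethra and at 13.64, 12.66, 13.19 and 12.62 in the sinus. The receptor Tgfbr2 was at 13.65, 13.89 and 13.65 against 13.30, 13.47, 12.76 and 12.56. In the FGF list 15 genes had a median of -0.24, and Fgf9 was at 11.02, 8.10 and 8.52 against 11.17, 10.88, 11.92 and 11.89, where urethra replicate 1 overlapped the sinus.

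Among genes of retinoic acid handling, the enzymes Aldh1a1 and Aldh1a3 had differences in opposite directions, and neither was called. Aldh1a1, an enzyme that makes retinoic acid, was at 11.95, 11.95 and 12.56 in the urethra and at 9.34, 10.02, 10.28 and 11.43 in the sinus, with no overlap. Its difference was 1.89 (SE 0.689, limma adjusted p = 0.392), and against the bladder it was higher by 4.53 (adjusted p = 0.0134). Aldh1a3, which makes the same product, was at 5.65, 8.11 and 8.83 against 9.90, 8.62, 10.86 and 11.16, which overlap. Its difference was -2.60 (SE 1.02, limma adjusted p = 0.430). The receptor Rarb was at 13.58, 14.66 and 14.87 against 13.53, 13.35, 13.50 and 13.75. Over the 16 tested members the median was 0.43, with 0 called by limma. At an unadjusted p under 0.05 in limma 2 were higher (5.67% of all genes) and 1 was lower (4.71%). On 3 the urethra arrays lay wholly above the sinus arrays (4.9% of all genes), namely Aldh1a1, Rarg and Crabp2.

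Hox genes, which mark position along the body axis, were mostly dimmer in the urethra. Of 15 tested genes of groups 1 to 8 there were 13 with a negative difference, and the median was -0.88, but with title style as a block the median was 0.02. In groups 9 to 13 the median of 13 genes was -0.13, and it was -0.48 with title style as a block. Limma called 0 genes of either list. At an unadjusted p under 0.05 in limma 1 was higher (5.67% of all genes), namely Hoxd13. There were 5 lower (4.71% of all genes), namely Hoxb6, Hoxd3, Hoxd8, Hoxb9 and Hoxc10. Hoxc10 was at 8.55, 8.26 and 9.73 in the urethra and at 9.89, 11.50, 11.24 and 10.96 in the sinus, a difference of -2.05 (SE 0.495, limma adjusted p = 0.200). Hoxd13, the most posterior Hox gene of its cluster, was higher, at 15.78, 14.96 and 15.06 against 14.51, 14.58, 14.62 and 14.82. Its difference was 0.63, and against the bladder it was higher by 1.53 (adjusted p = 0.0100).

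Genes of the genital tubercle, the neighbouring outgrowth into which the urethra runs, showed no common direction. The median of 22 tested genes was 0.00, with 0 called. At an unadjusted p under 0.05 in limma 2 were higher (5.67% of all genes), namely Tbx4 and Hoxd13. There were 2 lower (4.71% of all genes), namely Sall4 and Msx1. Sall4, a zinc finger factor, was at 10.84, 9.62 and 8.60 in the urethra and from 11.16 to 12.28 in the sinus. In the list of steroid and budding genes of the sinus the median of 11 was -0.20. Greb1, an oestrogen-responsive gene, was at 10.42, 9.09 and 8.45 against 11.16, 11.74, 10.61 and 10.56, and its difference of -1.70 reversed to 0.13 with title style as a block.

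The mean level of neuron markers was higher on 3 of the 4 sinus arrays than on any urethra array, and that of duct markers on all 4. Of 25 tested neuron and ganglion genes 24 had a negative difference, 2 lay wholly below the sinus (3.32% of all genes did) and 0 above (4.9%), and 0 were called. At an unadjusted p under 0.05 in limma 5 were lower (4.71% of all genes), namely Hand2, Rbfox1, Elavl3, Gfra2 and Slc5a7, and 0 higher (5.67%). The median was -1.51. The mean level of the list was 8.33 on sinus replicate 1 and 12.02, 11.70 and 10.67 on replicates 2, 6 and 7, while the urethra had 8.32, 9.79 and 9.81. Sinus replicate 1 was thus as low as the lowest urethra array, and without it the median was -2.28. It was -0.94 without urethra replicate 1 and also without sinus replicate 2.

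Hand2, a factor of sympathetic neurons and of mesenchyme, was at 10.15, 11.25 and 10.84 in the urethra and at 11.44, 13.62, 13.18 and 13.18 in the sinus. Its difference of -2.11 (SE 0.487, limma adjusted p = 0.200) reversed to 0.40 with title style as a block. Stmn2, a microtubule protein of growing neurons, was split among the sinus arrays, at 5.65, 13.70, 14.07 and 12.98, with 5.65, 10.91 and 10.95 in the urethra. On both urethra replicate 1 and sinus replicate 1 it was at the floor. Rbfox1, a neuronal splicing factor, did not follow this split, at 8.39, 10.09 and 9.29 against 10.96, 11.25, 11.09 and 10.46.

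The list of nephric and reproductive duct genes, 11 tested, had the same median of -1.51, with 0 called. At an unadjusted p under 0.05 in limma 5 were lower (4.71% of all genes), namely Wt1, Cdh16, Wnt9b, Emx2 and Calb1. There were 0 higher (5.67% of all genes). Wt1, a factor of the gonad, kidney and mesothelium, was at 7.41, 8.33 and 6.33 in the urethra and at 10.26, 10.62, 11.19 and 10.25 in the sinus, a difference of -3.22 (SE 0.635, limma adjusted p = 0.126). Cdh16, a cadherin of kidney and duct epithelium, was at 7.51, 5.89 and 5.65 against 8.01, 10.61, 11.17 and 9.69, a difference of -3.52 (SE 0.896, limma adjusted p = 0.216). Neither gene overlapped between the regions, with sinus replicate 1 the lowest sinus array for Cdh16 but not for Wt1. The part of neighbouring duct tissue or nerve in the differences of other genes was not tested.

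Without sinus replicate 1, limma called 22 genes, 3 higher in the urethra (Clca3b, Ak5 and Flna) and 19 lower. Of the lower genes 4 are given here, chosen after their values were seen. Insm2, a zinc finger factor of neuroendocrine cells, was at 7.07 on sinus replicate 1 and at 10.04, 10.18 and 9.09 on the others, with 5.65, 5.65 and 5.97 in the urethra. Tnr, tenascin-R of the neural matrix, was at 5.65 and then 10.41, 10.47 and 9.20 in the sinus. The adhesion gene Cntn1 was at 9.92 and then 11.90, 12.22 and 12.38, and the homeobox gene Dlx1 at 5.65 and then 8.27, 8.39 and 8.25. For all 4, replicate 1 was the sinus array nearest to the urethra. Flna, which cross-links actin, was at 14.48, 14.39 and 14.31 in the urethra and, on sinus replicate 1, at 14.43, above the 12.68, 13.06 and 12.92 of the other sinus arrays.

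**Figure D3:**
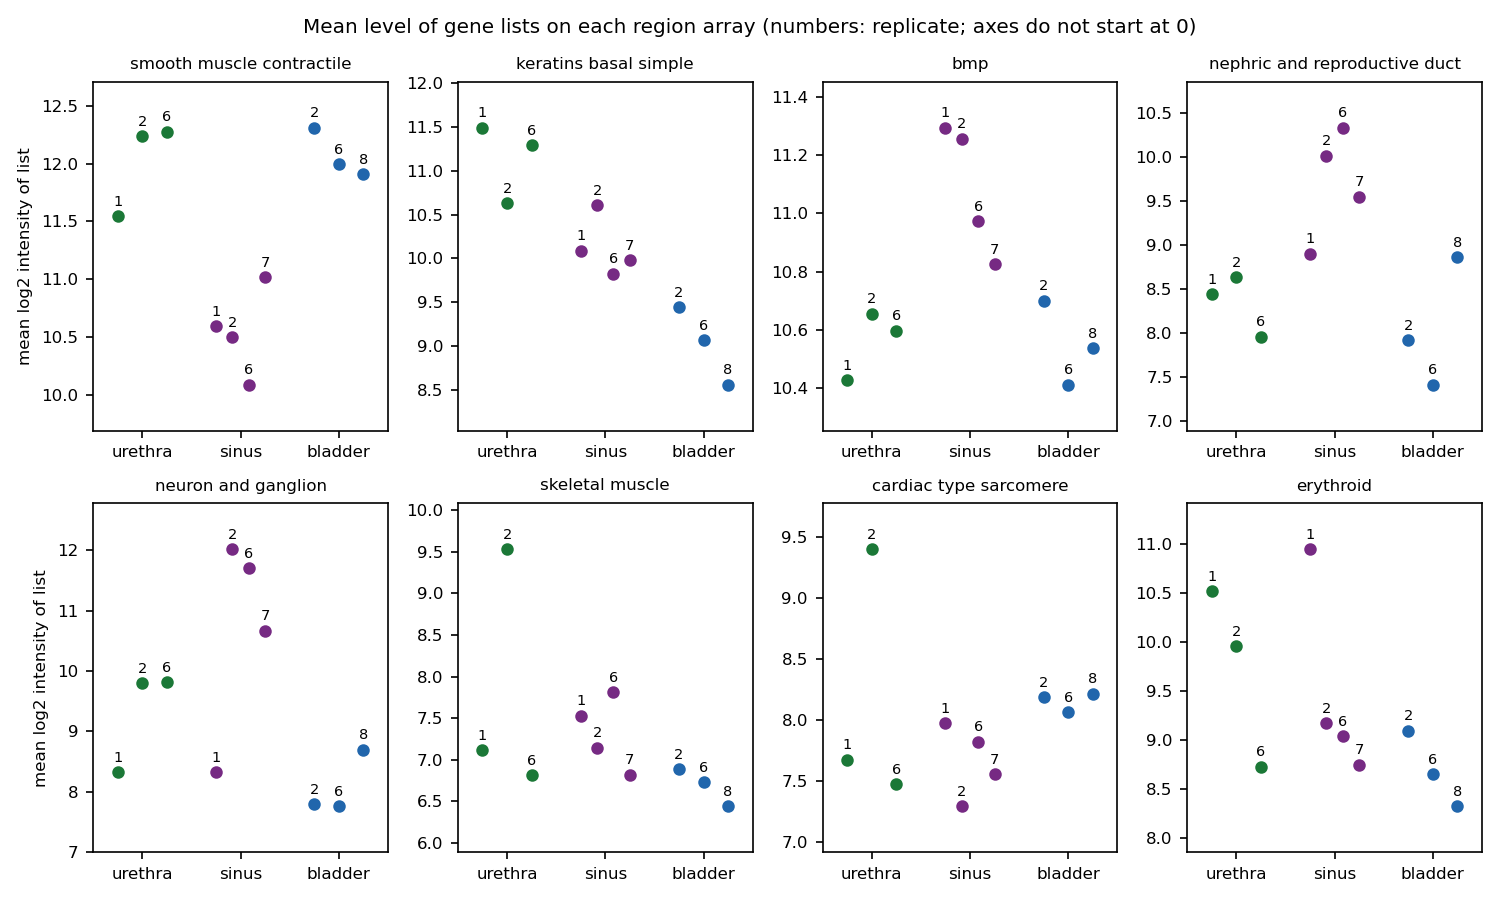
Mean log2 intensity over the tested members of 8 gene lists on each of the 10 region arrays (points, numbered by replicate), by region; the axes differ between panels and do not start at 0. Sinus replicate 1 is the lowest sinus array for neuron genes (8.33) and the highest for erythroid genes (10.95), and urethra replicate 2 stands above the others for skeletal muscle genes (9.53).

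Skeletal muscle, which forms the outer sphincter of the urethra, was marked on 1 urethra array. The mean over 22 tested genes was 9.53 on urethra replicate 2, 7.11 and 6.82 on the other urethra arrays and 6.82 to 7.81 in the sinus. Myog, a factor of differentiating skeletal muscle, was at 8.24, 12.23 and 7.62 in the urethra and at 8.99, 8.99, 9.34 and 8.32 in the sinus. The alpha-actin of skeletal muscle, Acta1, was at 8.67, 12.24 and 7.55 against 9.86, 7.46, 8.88 and 5.65. Urethra replicate 2 was the highest of the 7 arrays for both. The median difference was 0.68, and it became -0.17 without urethra replicate 2. Of the 22 genes 0 were called and 0 were free of overlap (4.9% of all genes lay wholly above and 3.32% wholly below). At an unadjusted p under 0.05 in limma 2 were higher (5.67% of all genes), namely Chrng and Tnnt1, and 0 lower (4.71%). Ckm, muscle creatine kinase, was at the floor on all 3 urethra arrays.

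Sarcomere genes shared with the heart also had their highest mean on urethra replicate 2 (9.40, with 7.68 and 7.48 on the others and 7.30 to 7.98 in the sinus). Myh7, a slow myosin heavy chain, was at 9.63, 11.79 and 7.86 in the urethra and at 7.60, 6.91, 8.38 and 7.47 in the sinus. The median of the 12 tested genes was 0.50 and became -0.27 without urethra replicate 2. The contractile smooth muscle list did not depend on that array, with a median of 1.12 without it.

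Genes of red blood cells were brightest on 1 array of each region. The erythroid list had a mean of 10.95 on sinus replicate 1 and 10.52 on urethra replicate 1, both numbered 1, and 8.73 to 9.96 on the other 5 arrays. The embryonic globin Hbb-bh1 was at 14.51, 10.17 and 8.49 in the urethra and at 15.04, 10.51, 8.44 and 8.51 in the sinus, so that the 2 arrays numbered 1 were the brightest. None of the 9 tested genes was called (0.0133% of all genes were) or free of overlap (4.9% of all genes lay wholly above and 3.32% wholly below). At an unadjusted p under 0.05 in limma 0 were higher (5.67% of all genes) and 0 lower (4.71%). At these shares a count of 0 among 9 genes says little.

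Most of the remaining lists were near the median of all genes. The extracellular matrix list (32 tested) had a median of 0.05, the endothelial list (18) 0.14, the macrophage and leukocyte list (14) -0.03, the cartilage and bone list (8) 0.00 and the immediate early and stress list (20) 0.02. Single members stood out in some of them. Col2a1, a collagen of cartilage, was at 9.12, 9.81 and 9.37 in the urethra and at 7.51, 8.46, 8.10 and 7.54 in the sinus. Thbs2, a matricellular thrombospondin, was at 10.28, 10.80 and 10.35 against 11.62 to 12.44, and Kdr, the main endothelial receptor for VEGF, was at 9.04, 10.51 and 11.17 against 11.38, 11.45, 11.45 and 11.41. Each of these 3 was free of overlap. With title style as a block the difference of Kdr was -0.30. Of the 18 endothelial genes 8 had a negative difference and 10 a positive one, such as Esam at 0.97.

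The cell cycle list (21 tested) had a median of 0.39. Cdk1, the mitotic kinase, was at 13.70, 12.71 and 13.05 in the urethra and at 12.50, 12.15, 12.21 and 11.99 in the sinus, a difference of 0.94 (SE 0.284, limma adjusted p = 0.295). Mki67, a marker of dividing cells, overlapped, with a difference of -0.13. The muscle receptor and channel list (13 tested) had a median of 0.07. Its sign depended on single arrays, with -0.42 without sinus replicate 1 or urethra replicate 6 and 0.27 without sinus replicate 7. The prostaglandin receptor Ptger3 of this list was at 9.29, 10.67 and 9.59 against 10.97, 10.92, 12.05 and 11.25. The mesothelial list (9) had a median of -0.47, the Schwann and neural crest list (10) -0.12, the hindgut list (9) 0.08, the epidermal list (9) -0.05 and the list of liver and yolk sac secreted proteins (10) 0.32.

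**Figure D4:**
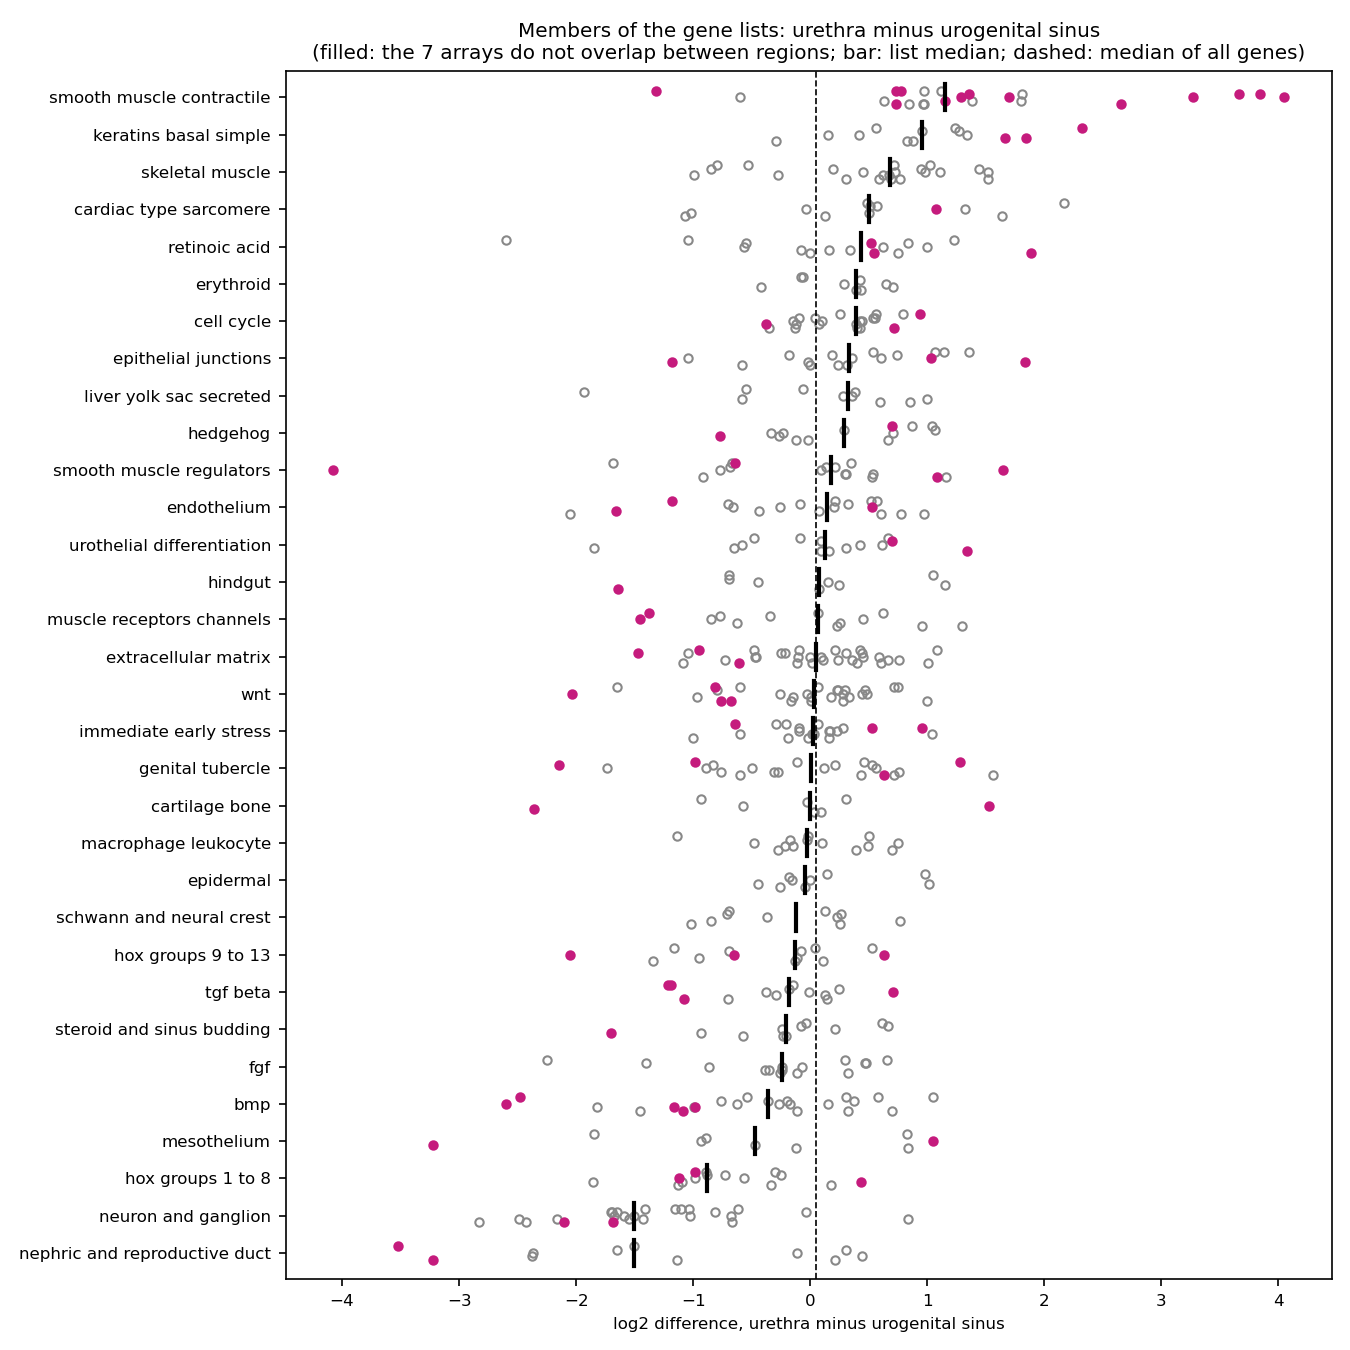
Log2 difference of urethra minus urogenital sinus for each tested member (circles) of the 32 gene lists, ordered by list median (black bar); filled circles are genes whose 3 urethra and 4 sinus arrays do not overlap, and the dashed line is the median of all genes (0.05). The contractile smooth muscle list has the highest median (1.15) and holds 12 filled circles on the right, and the duct and neuron lists have the lowest (-1.51).

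Theiler stage could be set against region only weakly. A limma interaction of region with stage over the 7 arrays had 3 residual degrees of freedom and 1 urethra array of stage 22, and called 0 genes, with 265 at an unadjusted p under 0.05. Its smallest adjusted p was 1, so it says little about any gene. The difference at stage 21 and at stage 22 was 4.12 and 4.02 for Actg2, 2.46 and 4.46 for Myl9, 3.45 and -0.06 for Myh7 and -1.31 and -3.54 for Sall4. The last 3 are those with the smallest unadjusted p among the named genes.

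The style of the sample titles could be followed only through the 3 newborn reference arrays, which repeat 1 kind of pooled RNA. The title of reference array 3 was set with the urethra titles because it shares their prefix and a word in place of a number, a choice that the labels do not settle. The prefix also stands in the titles of reference array 2, sinus replicate 7 and bladder replicate 8, and if array 3 belongs with those, a block for title style could not be fitted. Across 15019 genes, which are not independent replicates, urethra minus sinus had a Pearson correlation of 0.107 with reference array 3 minus array 1, given as a description. The sign of this reference difference matched that of urethra minus sinus in 53.7% of all genes and in 19 of the 24 leading genes. In 8 of these 24 it had the same sign and was over 1 in size.

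In a fit over all 13 arrays with title style as a block, only reference array 3 tells the urethra style apart from region. Any error of that 1 array therefore enters every blocked difference of urethra minus sinus. This fit changed the sign of 12 named genes. Of the 24 leading genes 23 kept theirs, all but Tbx20, and 3 were then under 1 in size, but these genes were chosen for their differences on the same arrays, so that this supports nothing. Actg2 had a difference of 3.21 (SE 0.847, limma adjusted p = 0.271), Cnn1 3.22 and Dgkk -3.54. The median of the contractile list was 1.16, that of the keratins 1.01 and that of the neuron list -1.66, each close to its value without the block. Other medians moved: Hox groups 1 to 8 from -0.88 to 0.02, the genital tubercle list from 0.00 to -0.64, retinoic acid from 0.43 to 0.09, the steroid and budding list from -0.20 to 0.13, FGF from -0.24 to 0.01 and the heart-type sarcomere list from 0.50 to 0.19. This fit called 14 genes, all higher in the urethra, and 0 of them were among the 2 called without the block.

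**Figure D5:**
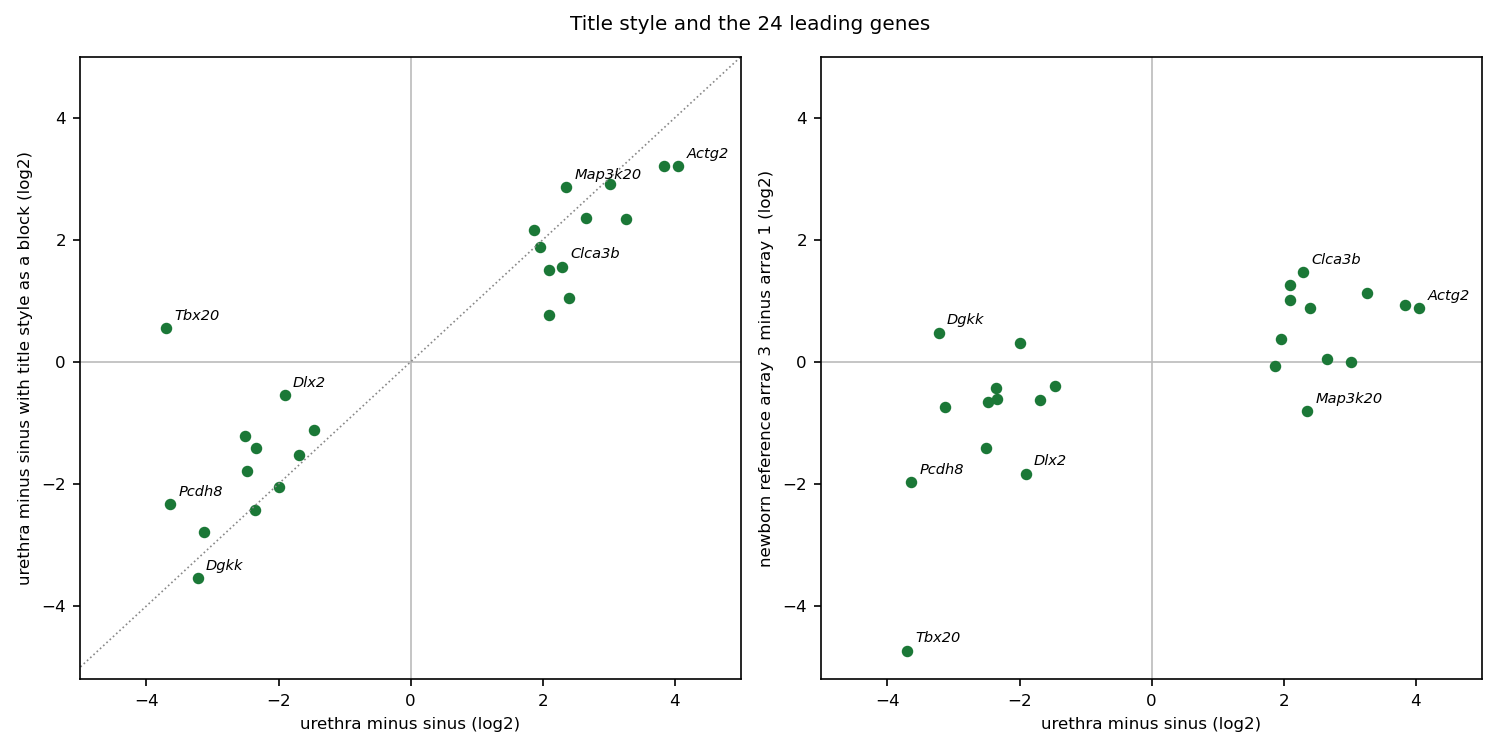
The 24 leading genes (points), by log2 difference of urethra minus sinus on the horizontal axis. The left panel sets against it the same difference with title style as a block (the dotted line marks equal values) and the right panel the difference of newborn reference array 3 minus array 1, both log2; Tbx20 lies apart in both, at 0.55 and -4.73.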

How the data were processed

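The table that the authors deposited holds linear intensity values of 45101 probe sets on 13 arrays, from RNA amplified in 2 rounds per the labels. The submitters' processing notes name GCOS without a version. How it scaled the signals is not stated in the labels, but each array has a trimmed mean of 1500, so nothing was rescaled. The number of arrays limits the precision.

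Intensities were floored at 50.23 and log2 transformed. Probe sets with 1 gene symbol above 167.76 (the 40th percentile) on at least 3 arrays were kept (27463), and the brightest stood for each of 15019 genes. Those of Actg2, Acta2, Pdzk1, Adgrg1, Pcdh8, Srf, Id2, Wt1 and some others can bind more than 1 transcript. No build is stated, so genes have no coordinates, and promoters came from RefSeq on GRCm38.p6. limma 3.58.1 in R 4.3.3 (eBayes with intensity trend, two-sided) fitted the 10 region arrays with region means, with 7 residual and 2.83 prior degrees of freedom. A fold against a group wholly below 167.76 is taken against that level and written "at least".

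The comparison, the 32 lists (551 genes, 488 tested) and the rule for named genes were chosen with earlier results of these data known. The rule names Actg2, called genes, 12 leading genes in each direction, the 3 members of each list with the smallest p, and markers by level. Other genes were named after their values were seen. The fits were checked on simulated data. Alternatives covered normalization, floor, filter, probe set choice, limma settings, arrays left out, stage, and blocks for title number (statmod 1.5.0) and title style.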

Additional observations from a re-analysis of the deposited data

Results flagged for a closer look

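Over the 4 sinus arrays, 133 quantities (95 named genes, 32 list means and 6 array measures, namely the share of probe sets past the level, median intensity, spike-in signal, the 3' to 5' ratios of actin and Gapdh, and mean correlation within the group) were checked for an array far from the other 3, of which 6 passed Dixon's critical value. Chance flags about 1 in 20 groups, so 6 of 133 is no more than chance alone would give. Clca3b was at 5.92 on sinus replicate 1 and at the floor of 5.65 on the others, so that any value off the floor would have been flagged. Ryr2, a calcium release channel of muscle, was at 9.33 on replicate 7 and at 9.90 to 9.97 on the others. On replicate 6, Sufu was low at 11.92 (others 12.22 to 12.24) and Tgfb2, a TGF-beta ligand, high at 13.80 (others 13.53 to 13.57). On replicate 1, Cdh17, a cadherin of intestine, was high at 9.96 (others 7.67 to 8.02), and so was the mean of the hedgehog list, at 12.32 (others 11.73 to 11.82).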

How the results depend on the processing

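With 3 against 4 arrays, the count of called genes (2) moved with nearly every setting: 1 with quantile normalization, the stricter filter, Theiler stage as a covariate or no intensity trend, 7 with arrays centred on their medians or the floor at the 40th percentile, 11 with no floor, 4 with no filter or every probe set on its own, 9 with robust eBayes, 17 with all 13 arrays, 0 with only the 7 urethra and sinus arrays, 664 with array weights (0.229 for sinus replicate 1 to 7.02 for sinus replicate 6), 14 with title style as a block, and 0 without both arrays numbered 1. Leaving out 1 array gave 0 to 22. The number in the title as a fixed replicate block gave 0, with sinus replicate 7 and bladder replicate 8 then adding nothing to the comparisons, and as a random replicate block 58 (correlation 0.27). Whether arrays of the same number are pairs is not in the labels. Deviations of same-numbered urethra and sinus arrays correlated at 0.21, -0.17 and 0.36. Those of differently numbered arrays ran from -0.42 to 0.41, so these values do not settle it. The Actg2 difference passed the threshold at 4.17 with arrays centred on their medians, 4.05 with no floor, all 13 arrays or robust eBayes, 5.01 with array weights and 4.18 with the random block, and ranged from 3.63 to 4.55 with 1 array left out. Centring moved the median of all genes from 0.05 to 0.17. Of 2624 values of the other 94 named genes, 2449 kept their direction and side of the threshold, and 129 newly passed it. The 34 that no longer passed were all of Clca3b and Pdzk1, the only 2 of these genes called under the main settings. Clca3b was called in 14 of 27 other settings and Pdzk1 in 7 of 28. For the remaining genes, keeping the side meant staying uncalled. A further 12 values reversed, each with title style as a block: Tbx20 to 0.55, Chrng to -0.37, Hoxd8 to 0.038, Hoxd3 to 0.017, Gas1 to 0.60, Dkk1 to 0.52, Wnt9b to 0.18, Wnt5a to 0.16, Greb1 to 0.13, Hand2 to 0.40, Aurka to -0.025 and Hsph1 to 0.43. The cause was not tested.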
